A study of Mus musculus with 7 samples.

Results

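The 31 genes described here encode enzymes of cholesterol and fatty acid synthesis, the proteins that control them, and 1 sterol carrier. They were chosen by symbol, as targets or regulators of the sterol regulatory element-binding proteins (SREBPs), out of 48709 Ensembl genes in the count table, and all 31 were among the 15394 genes abundant enough to test. By role they fall into 5 regulators, 8 genes of the mevalonate pathway, 10 of squalene and sterol synthesis, 1 of sterol transport and 7 of fatty acid synthesis. RNA of whole kidney from male mice was sequenced in 3 wild-type (WT) libraries, replicates 1, 2 and 4, and in 4 libraries from mice lacking Hs3st3a1 and Hs3st3b1 (DKO, double knockout), replicates 1 to 4. Both targeted genes encode 3-O-sulfotransferases, which modify heparan sulfate, and the title of the study names kidney and glomerular size and structure after their loss. The labels number the animals, 1 to a library, so the animal is the replicate. Age, strain, the deleted part of each gene and how the alleles were made are not stated in the sources used here.

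SREBPs are transcription factors held in the endoplasmic reticulum membrane with the escort protein Scap. When sterols are plentiful, Insig proteins keep Scap and its cargo there. When sterols run short, Scap carries the SREBP to the Golgi, where proteases free the part that enters the nucleus and switches on synthesis genes, Srebf2 acting mainly on sterol genes and Srebf1 mainly on fatty acid genes. In the kidney, cholesterol and fatty acids serve the membranes of tubule cells, while fatty acids are also a main fuel of the proximal tubule.

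SREBPs bind sterol regulatory elements, often next to a CCAAT box bound by the factor NF-Y, so promoters of the gene set are shown for these letters. Promoter sequences came from RefSeq on GRCm38.p6, from 250 bases before to 50 bases after each start, and 25 of the 31 genes had one. Both strands were searched, and in Hmgcs1, which holds both motifs, the matches share no bases. TCACNCCAC, a form of the sterol regulatory element, was found in 1 of the 25 genes (4%) and in 1.24% of all 32851 promoters. The share by gene was 1.44%, both of 27025 genes and of the tested genes with a promoter. The match lies in the promoter of Hmgcs1, the synthase that makes HMG-CoA, its first base 137 bases before the start, at chr13:119690204-119690232 on the plus strand, with the element in capitals:
Hmgcs1 sterol element: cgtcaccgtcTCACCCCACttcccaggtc
CCAAT, read on either strand, was found in 21 of the 25 genes (84%) and in 37.4% of all promoters. Counted by gene, it was found in 41.1% of 27025 genes and in 42.2% of the tested genes with a promoter. Windows around the box are printed for 7 genes that the results below turn on or that span the roles, each 5′ to 3′ on the strand of its gene, with CCAAT or its reverse complement ATTGG in capitals:
Srebf1: gcgcggctgctgATTGGccatgtgcgctc
Srebf2: cttcgcgcgccgATTGGctaatgcaagcc
Insig1: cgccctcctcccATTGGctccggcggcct
Hmgcs1: tccccgcctctcATTGGctgaaagcggat
Cyp51: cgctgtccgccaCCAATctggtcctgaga
Acss2: gccctacccactATTGGatgcctagagca
Fasn: cctcggtgtccaATTGGtttcgatgtgga
On GRCm38.p6 these windows lie at chr11:60210485-60210513 (minus strand) for Srebf1, chr15:82147122-82147150 (plus) for Srebf2, chr5:28071184-28071212 (plus) for Insig1, and chr13:119690294-119690322 (plus) for Hmgcs1. Those of Cyp51, Acss2 and Fasn lie at chr5:4104710-4104738 (minus), chr2:155517958-155517986 (plus) and chr11:120824590-120824618 (minus). The Srebf1 window lies before a start inside the outer bounds of the gene given below. The letters on either side of the box are not the same in all 7 genes, but ATTGG is followed by ct in Srebf2, Insig1 and Hmgcs1. In the Fasn window a CCAAT on the strand shown overlaps the marked ATTGG. A match is a description of these letters, and neither binding nor promoter activity was measured.

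The libraries held 18330833 to 24259231 gene counts. Reads of Hs3st3a1 averaged 0.920 ± 0.510 CPM (counts scaled by library size, ± SD) over the 3 WT libraries and 0.0416 ± 0.0577 over the 4 DKO libraries, each of which lay below each WT library. Hs3st3b1 was at 4.32 ± 1.26 and 3.69 ± 1.75 CPM, which checks nothing, since the deleted part is not given. A neomycin cassette row held 0 counts in each WT library and 73, 75, 81 and 125 in DKO. The kidney markers Slc34a1 and Umod were abundant in each library, at 2982 CPM or more and 2835 CPM or more.

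None of the 31 sterol and fatty acid synthesis genes passed edgeR's quasi-likelihood test between DKO and WT kidneys. For regulators, mevalonate enzymes, sterol enzymes, the carrier and fatty acid enzymes alike the DKO libraries overlapped the WT libraries, and the fitted folds lay between 0.567 for Insig1 and 1.38 for Elovl6. In whole tissue, fewer cells of a type and less RNA per cell cannot be told apart, so each value is an average over the cells of the kidney. At an adjusted p under 0.05, 0 of the 31 genes were called, as were 0 of 15394 genes overall (0%). At an unadjusted p under 0.05 the count was 0 of 31, beside 21.1% of all genes tested. The count of genes whose DKO and WT libraries lay apart was 0 of 31, beside 17.4% of all genes.

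DESeq2 also called 0 of the 31 at an adjusted p under 0.05, beside 4% of all genes, and 1 of them, Insig1, at an unadjusted p under 0.05, beside 21.8%. By direction in the edgeR fit, 16 genes were higher and 15 lower in DKO, beside 53.2% higher among all genes. The median log2 fold change was 0.017 for the set and 0.036 for all genes. The precision allowed a bound for most of them: for 27 of the 31 the 95% interval of the fold change stayed within 2-fold either way, which held for 62.5% of all genes. The exceptions were Insig1, Msmo1, Fasn and Scd1. Counts ranged from 30 to 14420 per gene and library, and 28 of the 31 genes had at least 100 counts in each library.

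**Figure D1:**
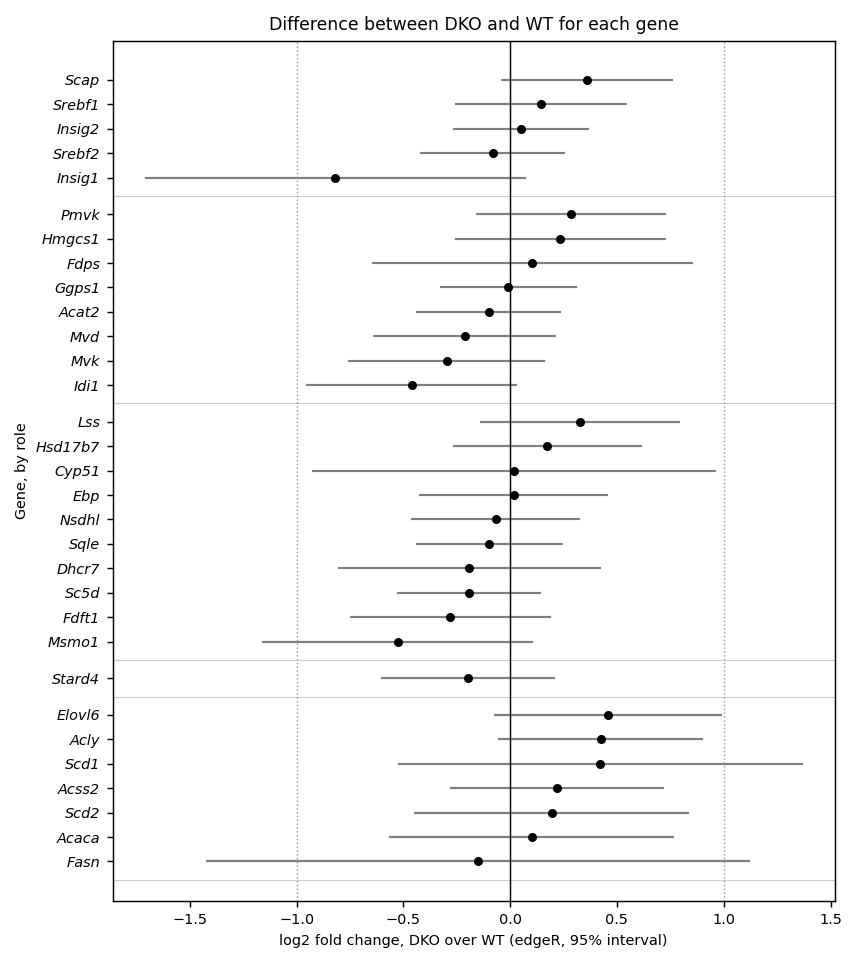
The log2 fold change of DKO over WT on the x axis for each of the 31 genes, grouped by role on the y axis. Bars are 95% intervals derived from the edgeR test (3 WT and 4 DKO libraries). Intervals cross 0 in all rows, and the widest is that of Fasn, from -1.42 to 1.12.

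Of the 5 regulators 3 were higher and 2 lower in DKO, with a median log2 fold change of 0.051, and none passed the test. The split was 2 and 3, with medians of -0.024 and -0.011, with a trend on exon length and GC content removed and without WT replicate 4. It was also 2 and 3, with a median of -0.12, with that trend removed and replicate number as a block. Srebf1 (ENSMUSG00000020538, chromosome 11, 60199089 to 60222581) encodes the SREBP that acts mainly on fatty acid genes. It was at 18.1, 13.0 and 15.6 CPM in WT replicates 1, 2 and 4 and at 16.0, 14.6, 20.6 and 17.4 CPM in DKO replicates 1 to 4. WT replicate 2 was lowest and DKO replicate 3 highest, and the other libraries were mixed, with a log2 fold change of 0.14 (SE 0.18, 95% interval -0.25 to 0.54, edgeR adjusted p 0.667). The gene lies 3.66 Mb from the targeted pair on the same chromosome, which also holds Acaca, Acly and Fasn, at 19.6, 36 and 56.3 Mb.

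Srebf2 (ENSMUSG00000022463, chromosome 15, 82147181 to 82205379), whose product acts mainly on sterol genes, was at 25.8, 22.6 and 24.4 CPM in WT and at 19.8, 23.7, 21.9 and 26.3 CPM in DKO. The highest and the lowest library were both DKO. Its log2 fold change was -0.08 (SE 0.15, interval -0.42 to 0.25, edgeR adjusted p 0.780). Per kilobase of exon, the mean levels of both SREBP genes over the libraries were close, at 2.92 CPM for Srebf1 and 3.27 CPM for Srebf2. Their escort Scap was at 2.88 CPM per kilobase.

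Insig1 (ENSMUSG00000045294, chromosome 5, 28071363 to 28078662) encodes a sterol-sensing retention protein and is itself a classical SREBP target. It had the most variable values of the regulators, at 165, 93.9 and 280.1 CPM in WT and at 125, 59.6, 78.8 and 144 CPM in DKO. WT replicate 4 stood above the other libraries, whereas WT replicate 2 lay inside the DKO range. The WT libraries averaged 179.7 ± 94.0 CPM (SD, n = 3) and the DKO libraries 102 ± 39.2 CPM (SD, n = 4). In edgeR the log2 fold change was -0.82 (SE 0.39, interval -1.71 to 0.07), with an edgeR adjusted p of 0.266 and an exact permutation p of 0.171 over 35 arrangements. It was -0.35 without WT replicate 4, -1.14 without WT replicate 2 and -1.03 without DKO replicate 4. The unadjusted p was under 0.05 in 6 of 17 alternatives, and the adjusted p ranged from 0.128 to 0.741 over the alternatives. Its relative Insig2, which has the same retention role, averaged 103 ± 9.43 CPM (WT) and 106 ± 6.77 CPM (DKO), a difference of 0.05 on the log2 scale.

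Scap, Idi1, Msmo1, Mvd, Elovl6, Fasn, Scd1 and Ggps1 are given in detail because their values were seen to stand out among the 31 genes. Scap was at 16.6, 23.2 and 15.4 CPM in WT and at 23.8, 25.5, 25.2 and 20.2 CPM in DKO. Only WT replicate 2 reached the DKO range. This gave a log2 fold change of 0.36 (SE 0.18, interval -0.04 to 0.76, edgeR adjusted p 0.274), and one of 0.13 with the length and GC trend removed.

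**Figure D2:**
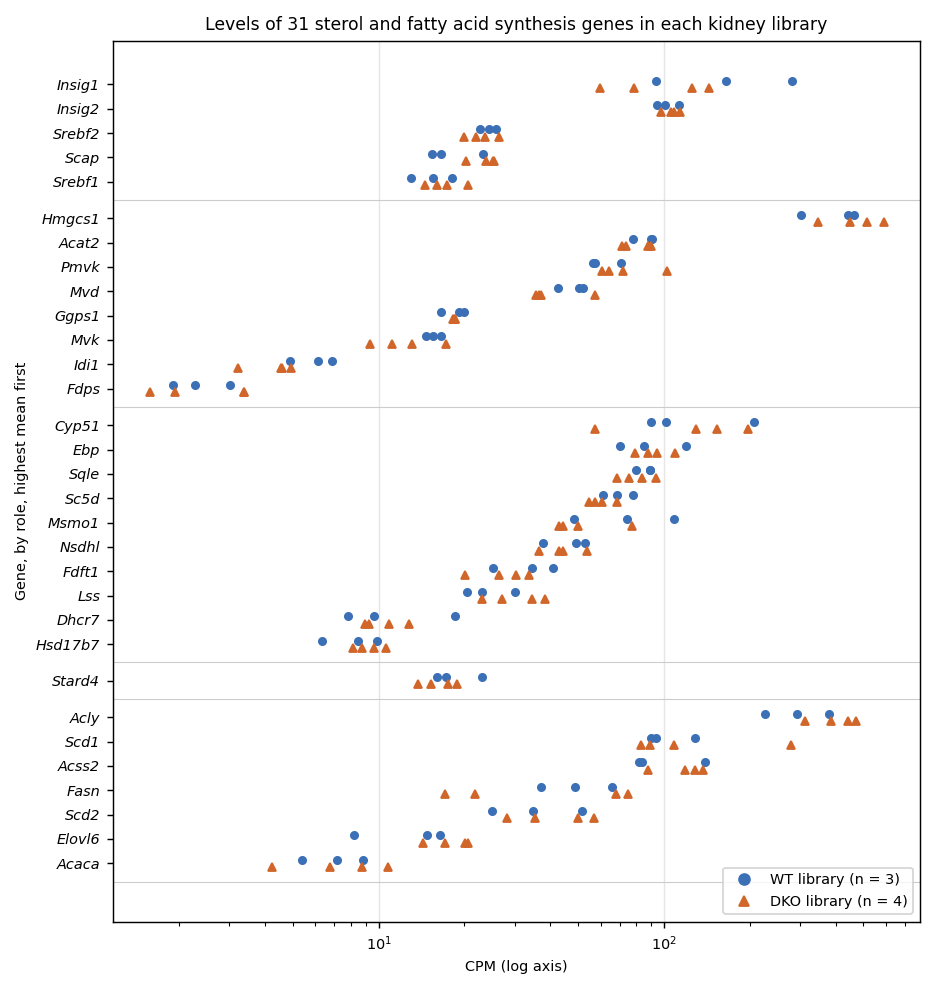
CPM on a log axis for each of the 31 genes in each library, with WT circles (3) and DKO triangles (4), grouped by role and ordered by mean level. Hmgcs1 and Acly reach the highest CPM and Fdps the lowest, and circles and triangles overlap for each gene.

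The mevalonate pathway turns acetyl-CoA into isoprenoid units, and 3 of its 8 genes were higher and 5 lower in DKO, with a median log2 fold change of -0.055. Hmgcs1 (ENSMUSG00000093930, chromosome 13, 119690379 to 119708260), whose promoter holds the sterol element printed above, had the highest level of the 31 genes, at 96.4 CPM per kilobase over the libraries. It was at 442, 462 and 303 CPM in WT and at 345, 513, 447 and 589 CPM in DKO. WT replicate 4 was lowest and DKO replicate 4 highest, with the other libraries between them. Its log2 fold change was 0.24 (SE 0.22, interval -0.25 to 0.72, edgeR adjusted p 0.554).

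Idi1, the isomerase that interconverts the C5 units from which isoprenoids are built, had the smallest p of the gene set. It was at 4.88, 6.88 and 6.15 CPM in WT and at 4.58, 4.57, 3.23 and 4.94 CPM in DKO. DKO replicate 4 lay just above WT replicate 1, and the other DKO libraries lay below the WT libraries. This corresponds to a log2 fold change of -0.46 (SE 0.22, interval -0.95 to 0.03), with an edgeR adjusted p of 0.259 and an exact permutation p of 0.0571, where 0.0286 is the smallest possible. Idi1 received 729 reads in all libraries together. The row Idi1-ps1, which aligns over 684 nt at 100% identity, received 37, and reads of such copies can be divided between rows.

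Fdps, the synthase that makes farnesyl diphosphate, was lowest of the pathway in CPM, at 3.01, 1.91 and 2.27 CPM in WT and at 1.94, 1.58, 3.38 and 3.39 CPM in DKO. DKO replicates 3 and 4 lay above the WT libraries, replicate 2 below them and replicate 1 at their lower edge. A log2 fold change of 0.10 (SE 0.34, interval -0.64 to 0.85, edgeR adjusted p 0.880) ranged from -0.061 to 0.28 with single libraries left out, turning negative without WT replicate 2, DKO replicate 3 or DKO replicate 4. Its level is uncertain, because Gm3571 aligns with it over 1062 nt at 98.9% identity and received 370 reads against 365 for Fdps. Its exons also share 1124 of 4208 bases with Gm43738 on the same strand, which received 0 reads.

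Mvd, which decarboxylates mevalonate diphosphate, was at 52.0, 50.5 and 42.4 CPM in WT and at 36.6, 35.7, 37.1 and 57.3 CPM in DKO. DKO replicates 1 to 3 lay together below the WT libraries, and DKO replicate 4 lay above them. Over all libraries the log2 fold change was -0.21 (SE 0.19, edgeR adjusted p 0.536), and without DKO replicate 4 it was -0.41 (edgeR adjusted p 0.227). Ggps1, which makes the geranylgeranyl diphosphate used to prenylate proteins, was the least variable of the 31, averaging 18.6 ± 1.73 CPM (WT) and 18.4 ± 0.185 CPM (DKO), and its interval of -0.33 to 0.31 was among the narrowest.

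The other mevalonate genes had log2 fold changes from -0.30 to 0.28. Acat2, the cytosolic thiolase that opens the pathway, was at 86.4 ± 7.23 and 80.6 ± 9.69 CPM. It aligns over 1477 nt at 97.7% identity with Acat3, which received 658 reads against 12053. It also aligns over 445 nt at 98.65% identity with Tcp1, which received 20609 reads. A part of the Acat2 reads may therefore be shared. The kinases Mvk and Pmvk had log2 fold changes of -0.30 and 0.28, with edgeR adjusted p of 0.419 and 0.422.

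Squalene and sterol synthesis carries farnesyl units to cholesterol, and of its 10 genes 4 were higher and 6 lower in DKO, with a median of -0.083. The split was 2 higher and 8 lower with DESeq2 or its size factors and without DKO replicate 1 or WT replicate 4. Without DKO replicate 3 it was 5 and 5, and the median turned to 0.0035. Cyp51 (ENSMUSG00000001467, chromosome 5, 4081145 to 4104746), the lanosterol demethylase, had the highest mean CPM of the 10. It was at 102, 206 and 90.3 CPM in WT and at 153, 197, 57.2 and 129 CPM in DKO. WT replicate 2 and DKO replicate 2 were highest and DKO replicate 3 was lowest. The group averages were 133 ± 63.8 CPM (SD, n = 3) and 134 ± 58.5 CPM (SD, n = 4), with a log2 fold change of 0.02 (SE 0.42, interval -0.92 to 0.96, edgeR adjusted p 0.985). Its spread within groups was among the widest of the tested genes, only 6.83% of which had a larger one.

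Hsd17b7, a 3-ketosteroid reductase of the pathway, had the lowest mean CPM of the 10, at 9.91, 8.47 and 6.34 CPM in WT and at 8.14, 10.6, 8.76 and 9.67 CPM in DKO. WT replicate 4 was lowest and DKO replicate 2 highest, with a log2 fold change of 0.17 (SE 0.20, edgeR adjusted p 0.626). Msmo1, the sterol C4-methyl oxidase, was at 108, 48.5 and 74.4 CPM in WT and at 49.8, 42.7, 44.2 and 77.3 CPM in DKO. WT replicate 1 was highest and DKO replicates 1 to 3 were together with WT replicate 2 at the bottom. For Msmo1 the log2 fold change was -0.53 (SE 0.28, interval -1.16 to 0.10, edgeR adjusted p 0.302). It was -0.22 without WT replicate 1 and -0.78 without WT replicate 2, and the adjusted p ranged from 0.134 to 0.683 over the alternatives.

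The other sterol enzymes lay between -0.28 and 0.33 on the log2 fold change scale. Fdft1, the squalene synthase, averaged 33.5 ± 7.80 CPM (WT) and 27.6 ± 5.78 CPM (DKO). Its exons overlap those of Ctsb on the opposite strand over 774 of 4227 bases, and Ctsb received 381579 reads against 4384, so Fdft1 counts from this strandless kit are uncertain. Sqle, the squalene epoxidase, was at 86.1 ± 5.41 and 80.4 ± 10.9 CPM, and Lss, the lanosterol synthase, at 24.5 ± 5.04 and 30.7 ± 6.98 CPM. Nsdhl, Ebp, Sc5d and Dhcr7, which work on the later sterol intermediates, had log2 fold changes of -0.07, 0.02, -0.19 and -0.19. The sign for Dhcr7 rested on WT replicate 1 (18.5 CPM against 7.83 and 9.65 CPM in the other WT libraries), and without it the log2 fold change was 0.25.

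Stard4, a soluble carrier of sterols, is the only gene of the transport role, at 17.3, 16.0 and 23.0 CPM in WT and at 13.7, 15.3, 18.9 and 17.5 CPM in DKO. WT replicate 4 was highest, and the other libraries of both groups were mixed. The averages were 18.8 ± 3.71 CPM (SD, 3 WT) and 16.4 ± 2.29 CPM (SD, 4 DKO), with a log2 fold change of -0.20 (SE 0.18, interval -0.60 to 0.20, edgeR adjusted p 0.541).

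Fatty acid synthesis starts from cytosolic citrate and acetate, and 6 of its 7 genes were higher in DKO, with a median of 0.22. None of the 7 passed the test. With the trend on exon length and GC content removed, 4 were higher and 3 lower with a median of 0.066, and without WT replicate 2 the split was also 4 and 3, with a median of 0.40. With that trend removed and replicate number as a block, 3 were higher and 4 lower, with a median of -0.014. All 7 were higher without DKO replicate 1, DKO replicate 3 or WT replicate 1, with medians of 0.35, 0.19 and 0.34. Acly (ENSMUSG00000020917, chromosome 11, 100476353 to 100528000), which cleaves citrate to supply cytosolic acetyl-CoA, had the highest level of the 7, at 67.8 CPM per kilobase over the libraries. It was at 379, 293 and 226 CPM in WT and at 311, 472, 384 and 439.7 CPM in DKO. DKO replicate 1 lay inside the WT range and the other DKO libraries above the WT libraries. Acly had a log2 fold change of 0.43 (SE 0.22, interval -0.05 to 0.90), an edgeR adjusted p of 0.278 and an exact permutation p of 0.114.

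Acaca, the acetyl-CoA carboxylase that makes malonyl-CoA, had the lowest level, at 0.434 CPM per kilobase over the libraries. It was at 8.82, 5.40 and 7.15 CPM in WT and at 4.23, 8.77, 6.77 and 10.8 CPM in DKO. DKO replicate 1 lay below the WT range, DKO replicate 4 above it and the others inside it, with a log2 fold change of 0.10 (SE 0.30) that was -0.31 with the length and GC trend removed. Elovl6, which elongates palmitate, was at 14.7, 16.5 and 8.19 CPM in WT and at 14.3, 20.6, 17.1 and 20.1 CPM in DKO. WT replicate 4 stood low, DKO replicate 1 lay just below the other WT libraries, and the remaining DKO libraries lay above them. Elovl6 had a log2 fold change of 0.46 (SE 0.24, interval -0.07 to 0.99, edgeR adjusted p 0.288), and 0.21 without WT replicate 4.

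Fasn, the fatty acid synthase, had the widest spread of the 31 genes. It was at 65.8, 36.9 and 48.8 CPM in WT and at 17.1, 74.9, 21.8 and 68.0 CPM in DKO. DKO replicates 1 and 3 lay below the WT libraries, while replicates 2 and 4 lay above them. The averages were 50.5 ± 14.5 CPM (SD, n = 3) and 45.5 ± 30.2 CPM (SD, n = 4), with a log2 fold change of -0.15 (SE 0.54, interval -1.42 to 1.12, edgeR adjusted p 0.893). Its sign turned without DKO replicate 1 (0.12), DKO replicate 3 (0.094) or WT replicate 1 (0.067), and 3.01% of tested genes had a larger spread within groups.

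Scd1, a desaturase that makes oleate, was at 93.6, 129 and 90.2 CPM in WT and at 82.8, 278 (replicate 2), 89.4 and 109 CPM in DKO. DKO replicate 2 stood far above the other 6 libraries, which lay between 82.8 and 129 CPM. Over all 7 libraries the log2 fold change was 0.42 (SE 0.42, edgeR adjusted p 0.575), and -0.15 without DKO replicate 2. Its paralog Scd2 averaged 37.1 ± 13.5 CPM (WT) and 42.5 ± 13.1 CPM (DKO), and a stretch of 623 nt at 95.5% identity may divide reads between their rows. Acss2, which activates acetate, was at 101 ± 32.5 and 118 ± 21.4 CPM. Its exons overlap those of Gss on the opposite strand over 395 of 10163 bases. Gss received 124720 reads against 16001, which leaves some doubt over Acss2 counts from this strandless kit.

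**Figure D3:**
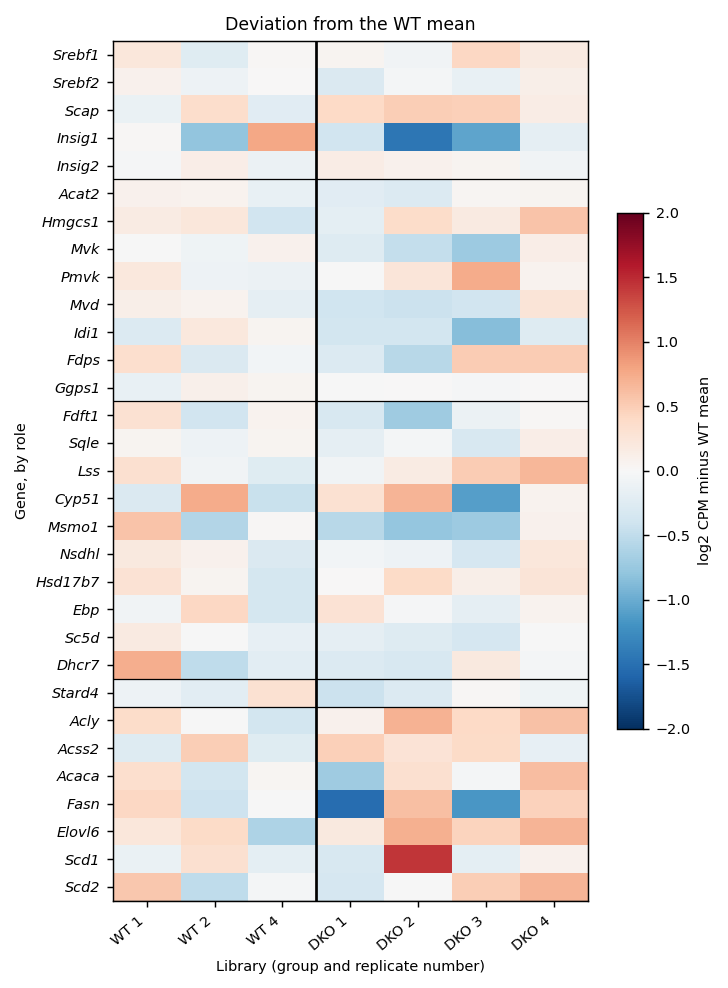
A heat map of log2 CPM minus the WT mean for the 31 genes (rows, by role) in the 7 libraries (columns, WT left of the line). Fasn is below the WT mean in DKO replicates 1 and 3 and above it in DKO replicates 2 and 4, and DKO replicate 4 is the highest library for 10 genes.

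The median within-group SD of log2 CPM was 0.292 for the 31 genes and 0.295 for all tested genes. The order of the libraries varied from gene to gene: DKO replicate 4 was highest for 10 genes and lowest for 0, WT replicate 4 was lowest for 9, and DKO replicate 2 was highest for 4 of the 7 fatty acid genes. Among the 10 sterol synthesis genes, WT replicate 1 was highest for 4 and DKO replicate 3 lowest for 4.

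Fat tissue is rich in fatty acid synthesis genes, so markers of fat and of other tissues are given beside them. Summed over 10 adipocyte markers, levels were 778.5 to 3412 CPM in WT and 1729.7 to 2763 CPM in DKO, with none of the 10 at 0 in all libraries. WT replicate 2 was the lowest, and Adipoq, which marks fat cells, was at 21.2 to 77.1 CPM in WT and 37.8 to 80.9 CPM in DKO. Within WT, replicate 2 also had the lowest sum of each other marker list except that of podocytes. Its red cell sum was 116 CPM, against 623 and 897 CPM in WT replicates 1 and 4. Of 8 adrenal cortex markers only 3 were abundant enough to test, their list summed to 3.65 to 6.10 CPM in WT and 4.45 to 7.30 CPM in DKO, and Cyp21a1 and Cyp11b2 were at 0 in each library. Markers of the proximal tubule, the most abundant cells of the kidney, summed to 13207 to 17535 CPM (WT) and 10685 to 14389 CPM (DKO). Even so, 6 of the 10 were higher in DKO. At an unadjusted edgeR p under 0.05, 3 were higher and 1 lower, beside 9.86% higher and 11.3% lower among all genes. The libraries lay apart for 4 of the 10, beside 17.4% of all genes. Among these, Slc34a1 was higher in each DKO library than in each WT library (log2 fold change 0.51, edgeR adjusted p 0.166, DESeq2 adjusted p 0.0300). The sum of 5 podocyte markers lay at 84.5 to 96.1 CPM in WT and 99.8 to 128 CPM in DKO, with no overlap. Singly, 4 of the 5 were higher in DKO, and 3 were higher at an unadjusted edgeR p under 0.05, beside 9.86% of all genes. The libraries lay apart for 2 of the 5, beside 17.4% of all genes. Of 6 thick ascending limb markers, 1 was higher in DKO at any p. At an unadjusted edgeR p under 0.05, 3 were lower, beside 11.3% of all genes. Among them, Umod had a log2 fold change of -0.68 (edgeR adjusted p 0.179), with overlapping libraries. Counted the same way, 7 macrophage markers gave 1 and 3, 7 distal and collecting duct markers 3 and 1, and 5 red cell markers 0 and 0. The part of any of these cells in the values above was not tested.

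Neighbouring genes of sterol synthesis, from a list of 18 genes outside the set that were all tested, were also divided, with 9 higher and 9 lower in DKO. At an unadjusted p under 0.05, 2 were lower and 0 higher, beside 11.3% lower and 9.86% higher among all genes, and the libraries lay apart for 2, 1 in each direction, beside 8.34% higher and 9.04% lower. Erg28, a scaffold of sterol enzymes, was at 99.2, 99.7 and 114 CPM in WT and at 82.5, 70.1, 80.1 and 83.2 CPM in DKO. The DKO libraries lay below the WT libraries, with a log2 fold change of -0.40 (SE 0.14), an edgeR adjusted p of 0.174 and an exact permutation p of 0.0286. Acat1, a mitochondrial thiolase, averaged 1703 ± 268 CPM (WT) and 1165 ± 255 CPM (DKO), with overlapping libraries and a log2 fold change of -0.55 (SE 0.21, edgeR adjusted p 0.194).

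Among 23 other genes of fatty acid and glycerolipid synthesis, 13 were higher and 10 lower, with 4 higher and 1 lower at an unadjusted p under 0.05. These 5 are 21.7% of the list, near the 21.1% of all genes tested. Lpin1, a phosphatidate phosphatase of triglyceride synthesis, was at 28.1, 31.3 and 28.3 CPM in WT and at 45.0, 60.0, 58.2 and 39.4 CPM in DKO. Gpam, the acyltransferase that commits fatty acids to glycerolipids, was at 29.8, 40.3 and 20.7 CPM in WT and at 46.5, 64.7, 63.2 and 50.5 CPM in DKO. For both, DKO libraries lay above WT libraries, with log2 fold changes of 0.79 (SE 0.18) and 0.89 (SE 0.23). The edgeR adjusted p was 0.163 for each, and DESeq2 called both, at adjusted p of 0.0244 and 0.0283. With the length and GC trend removed the fold changes were 0.52 and 0.72. Mlx, a partner of carbohydrate-sensing factors, had a log2 fold change of -0.44 (edgeR adjusted p 0.178), and Acacb, the mitochondrial acetyl-CoA carboxylase, one of 0.72 (edgeR adjusted p 0.189).

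Of 13 genes of the liver X receptor (LXR) and sterol efflux, 11 were tested, and 10 were higher in DKO with a median of 0.36, beside 53.2% higher over all genes. This list was chosen with earlier results of these data known, so its counts are a description and not a test. At an unadjusted p under 0.05, 4 were higher and 1 lower, where the shares of all genes were 9.86% and 11.3%, and in 3 the DKO libraries lay above the WT libraries, where the share of all genes was 8.34%. Abca1, which exports cholesterol from cells, was at 2.44, 3.07 and 2.27 CPM in WT and at 8.71, 6.93, 5.28 and 3.59 CPM in DKO. The DKO libraries lay above the WT libraries, with a log2 fold change of 1.24 (SE 0.31), an edgeR adjusted p of 0.163, a DESeq2 adjusted p of 0.0257 and an exact permutation p of 0.0571. Mylip, a ubiquitin ligase of lipoprotein receptors, averaged 14.5 ± 6.20 CPM (WT) and 38.1 ± 18.7 CPM (DKO), with overlapping libraries (1.40, SE 0.44, edgeR adjusted p 0.164, DESeq2 adjusted p 0.0281). Abcg1, another sterol exporter, averaged 101 ± 29.1 CPM (WT) and 159 ± 41.2 CPM (DKO), with a log2 fold change of 0.65 ( edgeR adjusted p 0.180). Nr1h3, the LXR alpha receptor itself, had a log2 fold change of -0.47 ( edgeR adjusted p 0.183).

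Of 11 genes of fasting and ketone metabolism, 10 were tested, and 9 were higher in DKO with a median of 0.54. Over all genes 53.2% were higher. The choice of this list was also made with earlier results of these data known, so its counts are a description and not a test. At an unadjusted p under 0.05, 4 were higher and 0 lower, beside 9.86% higher and 11.3% lower over all genes. Pck1, Ppargc1a and G6pc, which act in gluconeogenesis and its control, had log2 fold changes of 1.07, 0.53 and 0.55, with edgeR adjusted p of 0.163, 0.163 and 0.209. Only the first pair was called by DESeq2, at adjusted p of 1.09e-06 and 0.0448.

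**Figure D4:**
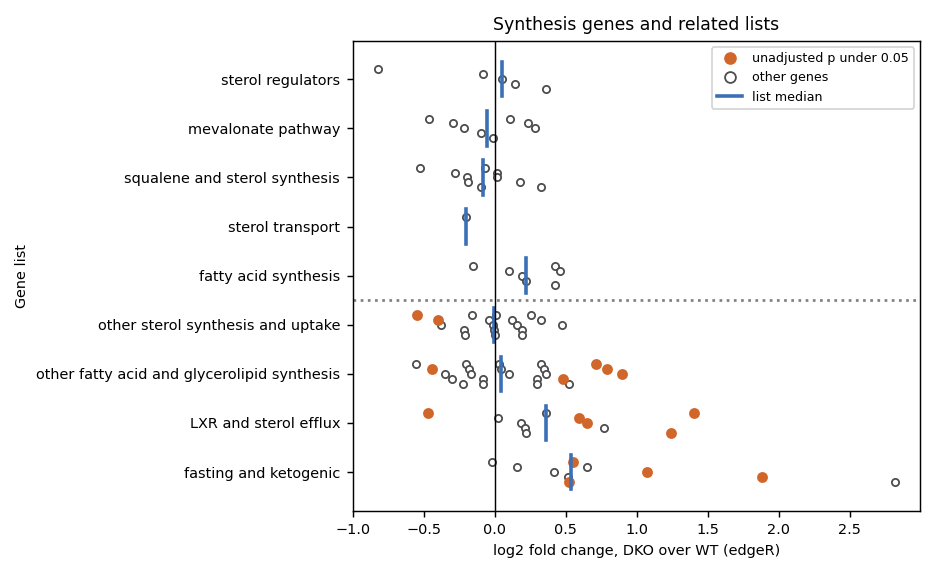
Log2 fold change of DKO over WT on the x axis for each gene of the 5 role lists (above the dotted line) and of 4 related lists (below it), filled where the unadjusted edgeR p is under 0.05, with a bar at the list median. No filled point appears in the role lists, whose medians lie between -0.20 and 0.22, and the LXR and fasting lists have medians of 0.36 and 0.54. All lists were chosen with earlier results of these data known.

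**Figure D5:**
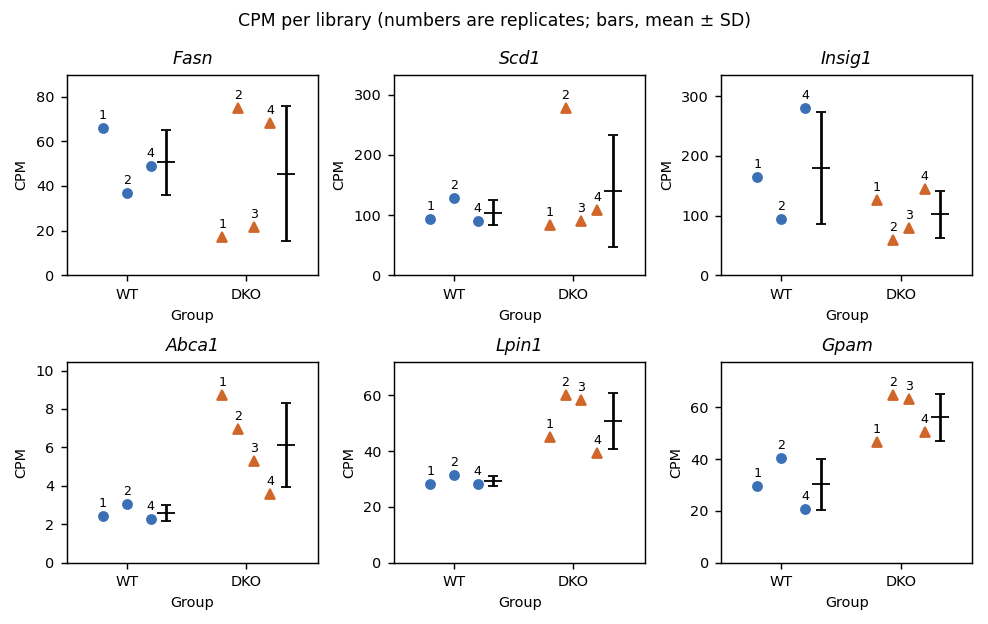
CPM per library for Fasn, Scd1 and Insig1 of the set and for Abca1, Lpin1 and Gpam of the related lists, with replicate numbers beside the points and bars for mean ± SD (3 WT, 4 DKO). WT and DKO points overlap for Fasn, Scd1 and Insig1, while those of Abca1, Lpin1 and Gpam do not.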

How the data were processed

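RNA of 7 kidney libraries, 3 WT and 4 DKO, was counted per gene. Per the labels' protocols, libraries were made with an unstranded kit and sequenced on an Illumina instrument. Per the submitters' processing notes, reads were aligned with STAR 2.5.2a, and GRCm38 (mm10) and GRCh38 are listed, the role of the latter unstated. The sources used here do not name the read counter or its strand setting. The authors deposited raw counts per Ensembl gene (48733 rows, 24 of them not genes, at most 0.000697% of a library, left out), filtered counts, and a TMM-scaled signal table (CPM, used for symbols only).

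CPM values here are raw counts scaled with TMM. The main test was edgeR 4.0.16 (R 4.3.3) quasi-likelihood, robust, after filterByExpr (minimum count 10, minimum total 15), two-sided, with Benjamini-Hochberg adjustment over all 15394 genes. Each SE was derived from this test, as the absolute log2 fold change over the square root of its F value. The 95% intervals take that SE and a t quantile at the degrees of freedom of the test. Single genes were also tested by exact two-sided permutation of CPM over 35 arrangements of the libraries. DESeq2 1.42.0, limma 3.58.1 (voom) and mgcv 1.9.3 (length and GC trend) served as alternatives, with others in the closing section. Gene positions and exon lengths came from GENCODE M21 on GRCm38, and copies of at least 200 nt at 95% identity were searched by alignment. The genes, the lists and the rule for named genes were chosen with earlier results of these data known. Named were all genes of the set, with per-library values for both SREBP genes and for those highest and lowest in each role, plus up to 4 genes per related list at an unadjusted p under 0.05, except 1 that is not reported here. Values per group are mean ± SD. P-values set the difference between the groups against the spread between these animals. Further cell type markers were 6 thick ascending limb genes (6176 to 10087 CPM in WT, 4537 to 6948 CPM in DKO), 7 distal and collecting duct genes (1477 to 2485 and 1679 to 2511 CPM), 7 macrophage genes (464 to 809 and 350.2 to 625 CPM) and 5 red cell genes (116 to 897 and 214 to 425 CPM).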

Additional observations from a re-analysis of the deposited data

Results flagged for a closer look

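Among 55 groups of 4 DKO values tested for a value far from the others, 3 stood out, where chance gives about 5% of groups. Mvd was at 57.3 CPM in DKO replicate 4 against 35.7 to 37.1 CPM in the other DKO libraries. Scd1 was at 278 CPM in DKO replicate 2 against 82.8 to 109 CPM. Abcg1, a sterol exporter of the related lists, was at 221 CPM in DKO replicate 3 against 134 to 141 CPM. The gap to the nearest value was 0.936, 0.868 and 0.916 of the range of the group, above Dixon's critical value for 4 samples. The WT group of 3 libraries is too small for this rule.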

How the results depend on the processing

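No gene of the 31 passed an adjusted p of 0.05 under the 17 alternatives (lowest adjusted p 0.128). The median log2 fold change of the set lay between -0.087 and 0.054. Over all genes, the count called was 616 with DESeq2, 66 with no low-count filter, 1 with the replicate block and a length and GC trend removed, and 0 to 7 with 1 library left out (1 without WT replicate 2 and 7 without DKO replicate 1). Members at an unadjusted p under 0.05 numbered 1 with DESeq2, where 21.8% of all genes passed. With the length and GC trend removed they numbered 2 (Srebf2, Msmo1), where 942 of all genes tested passed as higher and 1520 as lower. They numbered 2 with the range of the animal number as a block (Scap, Insig1) and 2 with no low-count filter (Acly, Elovl6). With 1 library left out they numbered 0 to 5 (5 without WT replicate 2, 4 without DKO replicate 4). For alternatives other than DESeq2 and the trend alone, the share of all genes is not given here, so those counts have no background. Correlations of deviations from the group means were -0.13, 0.16 and 0.14 for libraries sharing replicate numbers 1, 2 and 4. Of the WT libraries only replicate 2 correlated best with its own number. WT replicate 1 correlated best with DKO replicate 2 (0.10) and WT replicate 4 with DKO replicate 1 (0.16). Of DKO replicates 1, 2 and 4, replicates 2 and 4 correlated best with their own number. With 3 and 4 libraries to a group, these values cannot decide whether equal numbers mark pairs. With the replicate block, the count at an unadjusted p under 0.05 was 1 (Insig1), and 3 with the block and the trend removed (Insig1, Fdft1, Msmo1), while genes called numbered 0 with the block alone. The sterol synthesis genes were 5 higher and 5 lower with the block (median 0.0048). With the block and the trend removed, the fatty acid genes were 3 higher and 4 lower (median -0.014) and the regulators 2 and 3 (median -0.12). Of 527 member values under the alternatives, 480 kept their direction and 47, of 14 genes, reversed. With DESeq2, Cyp51 was at -0.0013 and Ebp at -0.00089. With RLE size factors they were at -0.0012 and -0.00093, and with voom Cyp51 was at -0.018. With the animal number block Fdps was at -0.060, and with upper quartile scaling Ggps1 was at 0.0078. With the length and GC trend removed Srebf1 was at -0.024, Ggps1 at 0.0014, Cyp51 at -0.046, Acss2 at -0.033 and Acaca at -0.31. With the replicate block Fdps was at -0.089, Ggps1 at 0.012 and Nsdhl at 0.031. With both, Srebf1 was at -0.12, Fdps at -0.16, Ggps1 at 0.0085, Lss at -0.024, Nsdhl at 0.070, Acss2 at -0.070, Acaca at -0.28 and Scd2 at -0.015. With 1 library left out, the ranges were -0.23 to 0.47 for Cyp51, -0.15 to 0.25 for Ebp, -0.061 to 0.28 for Fdps, -0.099 to 0.032 for Ggps1, -0.12 to 0.30 for Acaca, -0.20 to 0.025 for Nsdhl, -0.031 to 0.49 for Scd2, -0.50 to 0.12 for Fasn, -0.15 to 0.61 for Scd1, -0.43 to 0.25 for Dhcr7 and -0.011 to 0.11 for Insig2. The cause of these moves was not tested. With 3 against 4 animals, intervals of single genes reach past 2-fold for Insig1, Msmo1, Fasn and Scd1.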
